A study of Homo sapiens with 36 samples.

Results

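Expression was followed for 10 genes that report on Wnt signalling and on the intestinal stem cell state: AXIN2, NKD1, RNF43, ZNRF3, LGR5, ASCL2, SOX9, EPHB2, TCF7 and LEF1. They were found by their human Entrez numbers among the 26468 genes of the RNA-seq table, and all 10 were present and passed the filter on low values that left 15542 genes for testing. The study treated 6 human colon cancer cell lines with JQ1 (0.5 µM, 24 h) or with its solvent DMSO, and 3 samples of each made 36 libraries. JQ1 is a small molecule that displaces BET bromodomain proteins, readers of acetylated chromatin, and the series examined its effect on transcript levels. The groups compared are JQ1 and DMSO in HCT116, and JQ1 and DMSO in each of COLO205, COLO320, HCT-15, HT-29 and SW480. As background, HCT116 carries a stabilising mutation of CTNNB1, the gene of β-catenin, while the other 5 lines carry truncating mutations of APC, so that every group has a lesion that switches Wnt signalling on. The labels give the line and the treatment only, and with 1 CTNNB1-mutant line the genotype and the line cannot be told apart. Whether the 3 samples of a group are separate cultures is not stated, so each p-value measures only how far these samples vary, and that variation may be technical.

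In Wnt signalling, a destruction complex that holds APC, AXIN1 and GSK3B marks β-catenin for degradation until a Wnt ligand on a Frizzled receptor stops it. Stabilised β-catenin enters the nucleus and binds the DNA-binding factors of the TCF/LEF family, which then switch target genes on. In the intestinal crypt this pathway keeps stem cells dividing, and loss of APC or mutation of CTNNB1 is an early event in most colon tumours. Several targets feed back on the pathway: AXIN2 is a scaffold of the destruction complex, NKD1 binds Dishevelled and damps the signal, and RNF43 and ZNRF3 are membrane ubiquitin ligases that remove Frizzled receptors. LGR5 is a receptor for R-spondins and marks crypt stem cells, ASCL2 and SOX9 are transcription factors of the crypt, and EPHB2 is a receptor tyrosine kinase that positions cells along the crypt. TCF7 and LEF1 encode members of the TCF/LEF family themselves.

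Promoter sequences are shown for TCF7 and LEF1, the members that fell together in several lines, and for RNF43, whose change with JQ1 differed in direction between lines. RefSeq promoter entries of the human assembly GRCh38.p14 matched 4 of the 10 members, RNF43, TCF7, LEF1 and EPHB2. Each sequence below runs 5′ to 3′ along the gene and holds the 250 bases before the annotated start. TCF7 lies at chr5:134115363-134115612 on the plus strand, LEF1 at chr4:108166302-108166551 on the minus strand and RNF43 at chr17:58417535-58417784 on the minus strand. Capitals mark the core of the TCF/LEF motif, CTTTG, or its reverse complement CAAAG.
TCF7: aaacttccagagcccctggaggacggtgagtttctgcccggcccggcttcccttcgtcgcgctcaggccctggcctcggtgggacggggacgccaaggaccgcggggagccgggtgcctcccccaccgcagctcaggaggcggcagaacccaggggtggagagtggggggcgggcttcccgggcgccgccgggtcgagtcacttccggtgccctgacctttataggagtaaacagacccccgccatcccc
LEF1: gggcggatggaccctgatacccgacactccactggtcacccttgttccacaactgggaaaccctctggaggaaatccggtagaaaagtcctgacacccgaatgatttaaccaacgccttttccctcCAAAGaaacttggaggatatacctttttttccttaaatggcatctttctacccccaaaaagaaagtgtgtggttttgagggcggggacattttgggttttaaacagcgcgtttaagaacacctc
RNF43: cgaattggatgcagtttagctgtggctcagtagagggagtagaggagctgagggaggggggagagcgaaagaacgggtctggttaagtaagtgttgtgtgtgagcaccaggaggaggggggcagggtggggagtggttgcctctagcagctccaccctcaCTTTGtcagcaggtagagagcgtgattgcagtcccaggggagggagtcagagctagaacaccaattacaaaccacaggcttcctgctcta
The full motifs, CTTTGAA with its variant CTTTGAT as well as CTTTGTA with its variant CTTTGTT, searched on both strands, occurred in 0 of the 4 promoters and in 12.1% of all 27305 promoters of the same length. The shorter core CTTTG, searched after the longer motifs gave no match and contained in each of them, occurred in 2 of the 4 and in 42.2% of all. It lay 85 bases before the start of RNF43 and 119 bases before the start of LEF1. The E-box CACGTG, the motif bound by MYC and its partners, was in 0 of the 4 and in 6.49% of all. These counts describe the letters in these windows only.

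Library depth was 18.8 to 53.1 M reads in genes (M, mega), with a median of 24.5 M. The unit is RPKM, in which reads are scaled by gene length and library size, and for a gene length of 1 kb each read added 0.0191 to 0.0524 RPKM depending on the library. Of 10 colon epithelial marker genes, 7 to 10 reached 1 RPKM in 5 of the lines. COLO320 had 4 of 10, with the intestinal factor CDX2 leading and the keratin KRT19 at 0 with JQ1. CDX1 was at 0 in every HCT116, SW480 and COLO320 library and in the DMSO libraries of HCT-15. The summed level of these markers was higher with JQ1 than in DMSO in the 5 lines other than COLO320, where the keratin KRT18 or KRT19 led it. HT-29, for example, had 9088 to 9194 RPKM with JQ1 and 4082 to 4148 RPKM in DMSO. In COLO320 the sum was lower, at 888 to 921 RPKM with JQ1 and 1151 to 1163 RPKM in DMSO. Single markers did not all follow the sum (limma, adjusted p under 0.05). In SW480, 4 were higher with JQ1 and 4 lower, and in COLO320 1 was higher and 5 lower. HT-29 and COLO205 each had 6 higher and 2 lower, HCT-15 had 6 and 1, and HCT116 had 5 and 2. Among all tested genes, 31% to 36.6% were higher and 35.4% to 40.1% lower, depending on the line. The part of these marker changes in the results that follow was not tested. Of 15 markers of leukocytes, fibroblasts, endothelium and neuroendocrine cells, 1 to 6 reached 1 RPKM in a group and their sum was 3.93 to 22.0 RPKM per library outside COLO205, where CD68 led, at 105.0 RPKM with JQ1 and 158 RPKM in DMSO. In such bulk samples, fewer cells of a type and less RNA per cell cannot be told apart.

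In DMSO, HCT116 was at the low end of the 6 lines for most of these genes. It had the lowest level of the 6 lines for AXIN2, RNF43, ZNRF3 and ASCL2, and was next to lowest for NKD1 and TCF7. For LGR5 and LEF1 it was at the floor of detection together with other lines, so no order among them was determined. AXIN2 read 4.56, 4.33 and 4.17 RPKM in HCT116, against 18.1, 17.7 and 17.9 RPKM in HT-29, the next lowest line, and 197, 191 and 191 RPKM in SW480, the highest. The ranges of the 6 lines did not overlap for this gene, and the mean of SW480 was 44.4 times that of HCT116. ZNRF3 averaged 4.51 ± 0.163 RPKM in HCT116 (SD, n = 3 here and below), while the other lines lay close together, between 18.0 ± 0.433 RPKM in HT-29 and 25.7 ± 0.265 RPKM in COLO205. RNF43 averaged 15.4 ± 0.427 RPKM in HCT116, just under 18.2 ± 0.498 RPKM in HCT-15, and was highest at 59.1 ± 0.671 RPKM in COLO205.

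Of the 10 genes, 3 were almost silent in HCT116. Summed over its 3 DMSO libraries, ASCL2 had 1 read, LGR5 had 1 read and LEF1 had 3 reads. The pooled ratio of HCT116 to the 5 APC-mutant lines is therefore fixed by very few reads, and it is given as the APC-mutant lines over HCT116, with an exact 95% interval that covers counting error only. ASCL2 was 3237 times higher in the APC-mutant lines (581 to 127877), LEF1 2373 times (812 to 11509) and LGR5 700 times (125 to 27645). LGR5 was not high in every APC-mutant line either, with 9.96 ± 0.278 RPKM in COLO205, 4.29 ± 0.144 in HT-29 and 2.13 ± 0.188 in COLO320, but 12 reads in all in HCT-15 and 5 in SW480. LEF1 was likewise near the floor in HT-29, with 5 reads, and highest at 70.8 ± 0.525 RPKM in COLO320.

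Other members were marked by a single line. COLO205 held by far the most TCF7 and EPHB2. Its TCF7 libraries read 297, 295 and 302 RPKM, against a mean of 21.3 ± 0.722 RPKM in SW480, the next line, and 6.01 ± 0.253 RPKM in HCT-15, the lowest. Its EPHB2 libraries read 189, 188 and 192 RPKM, against 7.04 ± 0.580 RPKM in SW480 and 0.970 ± 0.0758 RPKM in HT-29, the lowest. NKD1 spanned 652-fold between lines, with 0.0669 ± 0.0255 RPKM in HT-29, 43.6 ± 0.978 RPKM in SW480 and HCT116 at 1.73 ± 0.0484 RPKM, near the low end. SOX9 was an exception to the pattern in HCT116, at 43.9 ± 0.959 RPKM, and the ranges of HCT116, HT-29, HCT-15 and COLO205 overlapped in order of level. SOX9 was highest at 104 ± 1.94 RPKM in SW480 and lowest at 3.19 ± 0.226 RPKM in COLO320, the line with the fewest epithelial markers. Neighbouring lines also overlapped for ZNRF3 (SW480, COLO320 and HT-29), for EPHB2 (SW480 with HCT116, and HCT-15 with COLO320) and for LEF1 (HT-29 with HCT116). For LGR5, the DMSO groups of HCT-15, SW480 and HCT116 had at most 12 reads each, and their order was not determined. All other neighbours in the order of DMSO levels had separate ranges.

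Tested as HCT116 minus the mean of the 5 APC-mutant lines, the DMSO level was lower for 9 members and higher for 1, SOX9. The tests used limma on log2(RPKM + 0.5), a scale that understates differences of low genes, with Benjamini-Hochberg adjustment over all tested genes and calls at an adjusted p under 0.05. In this contrast 46% of all tested genes were called lower and 41.2% higher, so a call is common and the size carries more information. The differences in log2(RPKM + 0.5) (± SE) were -3.69 ± 0.017 for AXIN2, -2.07 ± 0.023 for ZNRF3, -1.75 ± 0.032 for NKD1, -1.35 ± 0.029 for TCF7 and -1.28 ± 0.021 for RNF43. For ASCL2, LEF1 and LGR5 they were -5.03 ± 0.055, -3.85 ± 0.034 and -2.04 ± 0.048, values limited by the added 0.5 because HCT116 was close to 0. These genes passed the filter only through APC-mutant lines, so this contrast could only place them lower. They are counted among the 9 lower members and in the median. SOX9 differed by 0.51 ± 0.029 and EPHB2 by -0.47 ± 0.034. In neither gene, nor in NKD1 or TCF7, did HCT116 lie outside the range of the APC-mutant lines. The median over the 10 members was -1.89, against -0.04 over all tested genes. Without ASCL2, LEF1 and LGR5, whose direction was fixed by the filter, the middle value was that of TCF7, -1.35. Every one of the 10 genes also differed between the 6 lines in DMSO by an F test in limma, which held for 98.8% of all tested genes.

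**Figure D1:**
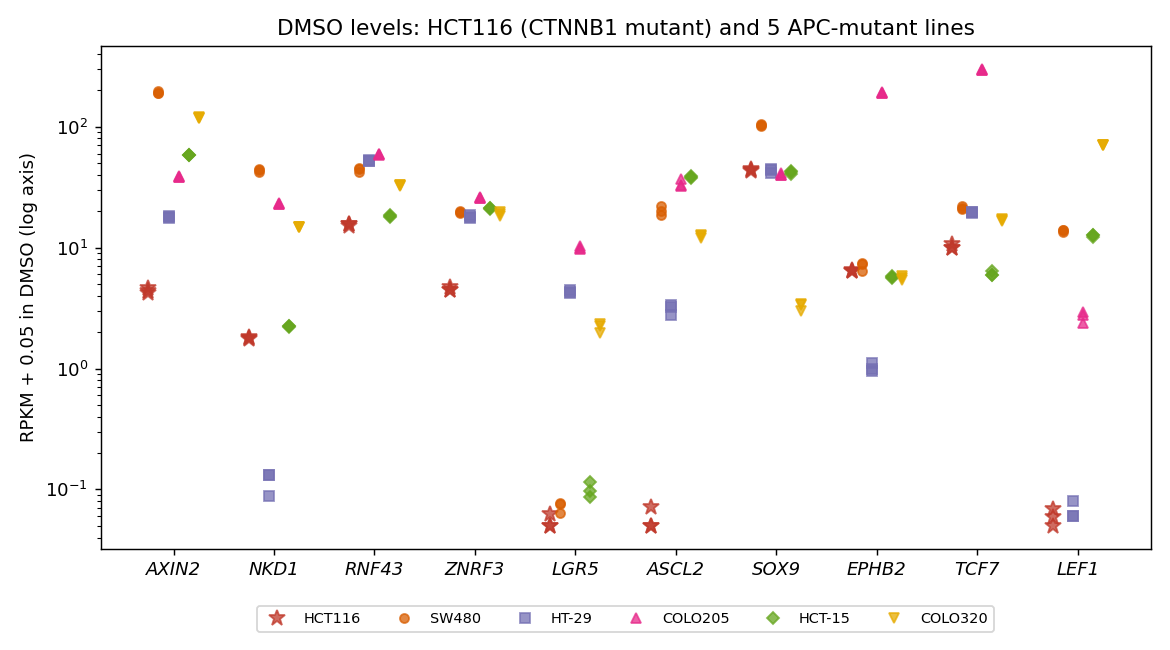
Level of each of the 10 genes in every DMSO library, as RPKM + 0.05 on a log axis, with 1 symbol shape and colour per cell line. HCT116 (stars) is lowest for AXIN2, RNF43, ZNRF3 and ASCL2, COLO205 is far above the other lines for TCF7 and EPHB2, and LGR5, ASCL2 and LEF1 drop to the floor of detection in some lines.

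JQ1 did not move the 10 genes as a block. Over 60 combinations of gene and line, 27 were higher with JQ1, 25 were lower and 8 were not called. TCF7 was lower in all 6 lines, AXIN2 was higher in 5 and EPHB2 was higher in 5. NKD1, RNF43, ZNRF3, LGR5, ASCL2 and SOX9 were called in opposite directions in different lines. The share of all tested genes called the same way in 5 or 6 lines was not counted. Whether such agreement between lines is more frequent in these genes than among all genes was not tested. Only 6 of the 60 changes reached 2-fold on the log2(RPKM + 0.5) scale: NKD1 and ASCL2 rose in COLO205, and ASCL2 fell in SW480, HT-29, HCT-15 and COLO320. Among all tested genes, 3.49% rose by as much in COLO205, while 4.88% fell by as much in SW480, 5.9% in HT-29, 3.55% in HCT-15 and 4.66% in COLO320. COLO205 had the most increases, with 8 members higher and 2 lower, where 34.2% of all tested genes were higher and 38.6% lower. SW480 had the most decreases, with 2 members higher and 7 lower, where the shares of all genes were 33.9% higher and 40.1% lower.

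In HCT116, 4 members were higher and 3 lower, against 32.4% and 35.5% of all genes. HT-29 had 5 higher and 3 lower, against 36.6% and 37.3%. HCT-15 had 3 higher and 5 lower, against 34.8% and 35.4%. With total reads as the divisor, 4310 genes were higher and 6820 lower in HCT-15, in place of 5413 and 5503. COLO320 had 5 of each, against 31% higher and 37.2% lower. Averaged over the 6 lines, 6 members were higher and 3 lower, against 40.2% and 48.3% of all genes, and NKD1 was not called. With so many genes called, the counts in HCT116, HT-29, HCT-15 and COLO320 and the average are near what all genes show; those of COLO205 and SW480 lie further from it, without a test of the list, and the values of each gene are given gene by gene. The JQ1 effect differed between the lines for all 10 genes by the F test in limma, as it did for 93.3% of all tested genes. On recovered reads in all 6 lines it was not called for LGR5 (voom, adjusted p = 0.459) or LEF1 (voom, adjusted p = 0.795), genes with at most 12 reads per group in some lines. When the 6 lines, and not the libraries, were taken as the units, 2 average effects were called: AXIN2 was higher (adjusted p = 0.00923) and TCF7 lower (adjusted p = 0.00433). In that fit, 2893 of all 15542 tested genes were called higher and 3162 lower.

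**Figure D2:**
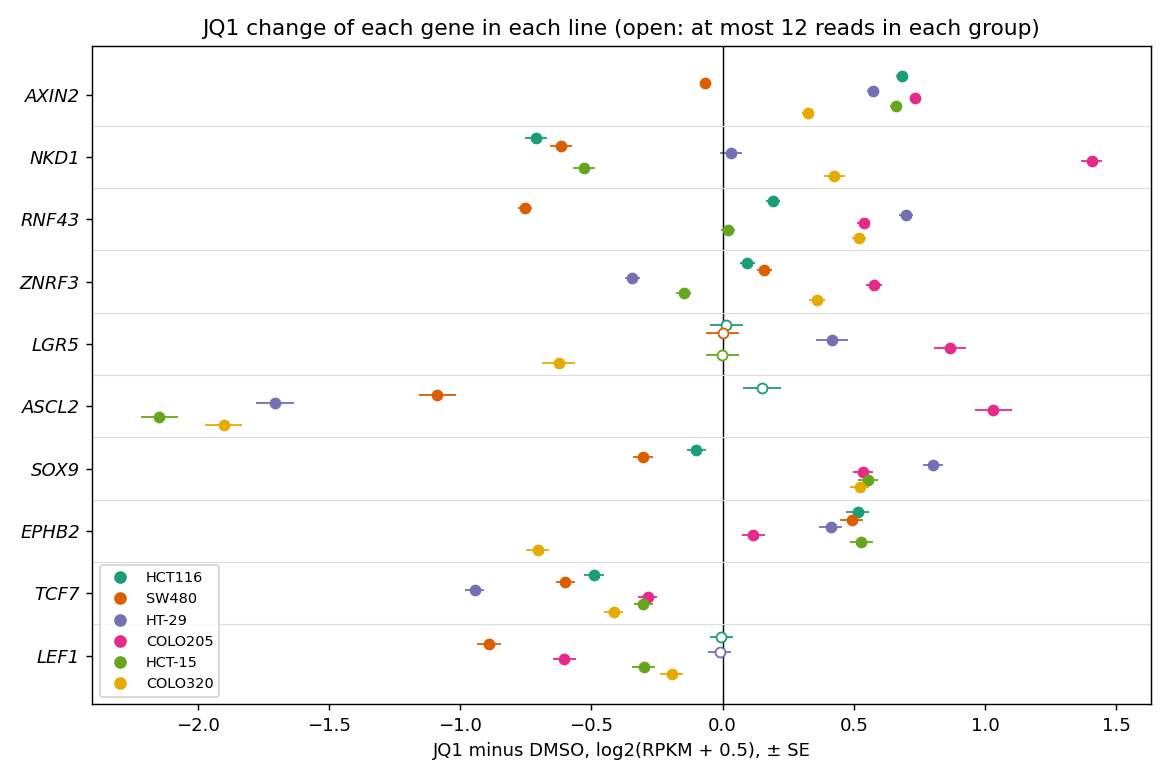
JQ1 minus DMSO difference in log2(RPKM + 0.5), ± SE from the limma fit (n = 3 libraries per group), for each gene (rows) and line (colours), with open symbols where each group had at most 12 reads. TCF7 lies left of 0 in all 6 lines, AXIN2 lies right of 0 in 5, and ASCL2 runs from -2.15 in HCT-15 to 1.03 in COLO205.

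AXIN2, the feedback scaffold most often used as a readout of β-catenin activity, rose with JQ1 in 5 lines. In HCT116 it had 7.47, 7.35 and 7.05 RPKM with JQ1, against 4.56, 4.33 and 4.17 RPKM in DMSO, a change of 0.68 ± 0.021, adjusted p = 4.56e-21 (log2 of RPKM + 0.5, ± SE, limma, here and in the values that follow). COLO205 had 64.4, 63.8 and 64.5 RPKM with JQ1, against 38.3, 38.1 and 38.8 RPKM in DMSO (0.73 ± 0.021, adjusted p = 2.94e-22). HCT-15 had 94.0, 90.7 and 93.1 RPKM with JQ1, against 58.4, 58.4 and 58.4 RPKM in DMSO (0.66 ± 0.021, adjusted p = 5.5e-21). In these 3 lines, HCT116 with the least AXIN2 among them, the change lay between 0.66 and 0.73, and no JQ1 library overlapped a DMSO library. In HT-29 it had 27.1, 27.1 and 26.3 RPKM with JQ1, against 18.1, 17.7 and 17.9 RPKM in DMSO (0.57 ± 0.021, adjusted p = 8.65e-20), and in COLO320 148, 149 and 149 RPKM with JQ1, against 118, 119 and 119.7 RPKM in DMSO (0.32 ± 0.021, adjusted p = 8.06e-14). Only in SW480, the line with the most AXIN2, was the level lower with JQ1. It had 184, 182 and 187 RPKM with JQ1, against 197, 191 and 191 RPKM in DMSO, a change of -0.065 ± 0.021, adjusted p = 0.00729. The ranges were separate but close, and without DMSO replicate 1 of SW480 the call was lost (adjusted p = 0.0533, with a range of 1.92e-05 to 0.0533 over all alternatives).

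NKD1, which binds Dishevelled and restrains the pathway, moved in opposite directions in different lines. In COLO205 it had 60.9, 61.1 and 62.9 RPKM with JQ1, against 22.8, 22.7 and 23.4 RPKM in DMSO, a rise of 1.41 ± 0.041, adjusted p = 3.87e-22 and the largest increase among the 60 combinations. COLO320 had 19.9, 20.1 and 20.4 RPKM with JQ1, against 14.9, 14.9 and 14.8 RPKM in DMSO (0.43 ± 0.041, adjusted p = 3.21e-10). In both lines all 3 JQ1 libraries lay above all 3 DMSO libraries. In SW480, the line with the most NKD1, it had 27.5, 28.7 and 28.6 RPKM with JQ1, against 44.0, 42.5 and 44.3 RPKM in DMSO (-0.62 ± 0.041, adjusted p = 9.84e-14). HCT116 had 0.981, 0.870 and 0.747 RPKM with JQ1, against 1.72, 1.69 and 1.78 RPKM in DMSO (-0.71 ± 0.041, adjusted p = 5.86e-15), and HCT-15 had 1.38, 1.36 and 1.31 RPKM with JQ1, against 2.18, 2.18 and 2.14 RPKM in DMSO (-0.53 ± 0.041, adjusted p = 2.84e-12). In these 3 lines all JQ1 libraries lay below all DMSO libraries. HT-29 had 0.0798 ± 0.0211 RPKM with JQ1 and 0.0669 ± 0.0255 RPKM in DMSO, with overlapping libraries and no call. The average over the 6 lines was 0.0016 ± 0.017 (adjusted p = 0.932), a mean of rises and falls.

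RNF43 and ZNRF3, the related ubiquitin ligases that clear Frizzled from the cell surface, did not follow each other in every line. RNF43 rose in HT-29 (87.5, 83.7 and 85.3 RPKM with JQ1, against 52.3, 52.1 and 52.8 RPKM in DMSO), with a change of 0.70 ± 0.027, adjusted p = 1.33e-19. It fell in SW480 (26.9, 25.2 and 25.6 RPKM with JQ1, against 45.2, 42.3 and 44.6 RPKM in DMSO), with a change of -0.75 ± 0.027, adjusted p = 3.97e-20. The libraries of the treatments were separate in both lines. RNF43 was also higher in COLO205, at 86.0 ± 0.517 RPKM with JQ1 and 59.1 ± 0.671 RPKM in DMSO (0.54 ± 0.027, adjusted p = 7.46e-17), and in COLO320, at 46.9 ± 1.15 RPKM with JQ1 and 32.6 ± 0.206 RPKM in DMSO (0.52 ± 0.027, adjusted p = 2.83e-16). In HCT116 the rise was small, at 17.7 ± 0.0528 RPKM with JQ1 and 15.4 ± 0.427 RPKM in DMSO (0.19 ± 0.027, adjusted p = 2.62e-07). HCT-15 had 18.5 ± 0.595 RPKM with JQ1 and 18.2 ± 0.498 RPKM in DMSO, with overlapping libraries (0.022 ± 0.027, adjusted p = 0.492). With total reads as the divisor it was called lower in HCT-15 (-0.098, adjusted p = 0.00222, with a range of 0.00222 to 0.94 over all alternatives). The counting is not stated to use strand, and the annotation (GENCODE 29) places TSPOAP1-AS1 over 1521 bases of RNF43 on the opposite strand, so reads of the pair could not be told apart there. TSPOAP1-AS1 changed in the direction of RNF43 in 4 lines, by 0.45 ± 0.045 in HCT116, -0.43 ± 0.045 in SW480, 0.24 ± 0.045 in HT-29 and 0.30 ± 0.045 in COLO320 (log2 of RPKM + 0.5, limma), and was not called in COLO205 (-0.055 ± 0.045, adjusted p = 0.286) or HCT-15 (-0.013 ± 0.045, adjusted p = 0.845). Its part in the RNF43 values was not tested. On the same strand, AC004687.2 overlaps RNF43 over 4326 bases and SUPT4H1 over 143 bases, and no value was matched to AC004687.2.

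ZNRF3 rose in COLO205 (38.6 ± 0.568 RPKM with JQ1 and 25.7 ± 0.265 RPKM in DMSO, 0.58 ± 0.029, adjusted p = 1.19e-16) and in COLO320 (24.4 ± 0.222 RPKM with JQ1 and 18.9 ± 0.666 RPKM in DMSO, 0.36 ± 0.029, adjusted p = 7.44e-12), as RNF43 did. In the other lines where RNF43 moved most, ZNRF3 moved the other way. It fell in HT-29, at 14.1 ± 0.158 RPKM with JQ1 and 18.0 ± 0.433 RPKM in DMSO (-0.34 ± 0.029, adjusted p = 1.33e-11), and rose slightly in SW480, at 22.0 ± 0.275 RPKM with JQ1 and 19.6 ± 0.272 RPKM in DMSO (0.16 ± 0.029, adjusted p = 1.83e-05). HCT-15 had 18.9 ± 0.448 RPKM with JQ1 and 21.0 ± 0.266 RPKM in DMSO (-0.15 ± 0.029, adjusted p = 4.96e-05). In HCT116 the ZNRF3 libraries overlapped, at 4.85 ± 0.283 RPKM with JQ1 and 4.51 ± 0.163 RPKM in DMSO (0.094 ± 0.029, adjusted p = 0.00558), and the call was lost without JQ1 replicate 1 (adjusted p = 0.0991) and in a fit of HCT116 alone (adjusted p = 0.173), with a range of 0.000304 to 0.173 over all alternatives.

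LGR5, the R-spondin receptor that marks crypt stem cells, could be followed in 3 lines. In COLO205 it had 18.5, 17.8 and 19.5 RPKM with JQ1, against 9.86, 10.3 and 9.75 RPKM in DMSO (0.87 ± 0.061, adjusted p = 2.9e-13). HT-29 had 5.31, 5.97 and 6.44 RPKM with JQ1, against 4.15, 4.27 and 4.43 RPKM in DMSO (0.42 ± 0.061, adjusted p = 5.9e-07). COLO320 had 1.12, 1.29 and 1.20 RPKM with JQ1, against 2.30, 2.18 and 1.93 RPKM in DMSO (-0.62 ± 0.061, adjusted p = 4.26e-10). LGR5 thus rose in COLO205 and HT-29 and fell in COLO320, with separate libraries in each. In HCT116 there were 2 reads with JQ1 and 1 in DMSO, SW480 had 5 with JQ1 and 5 in DMSO, and HCT-15 had 11 with JQ1 and 12 in DMSO, so no change was detectable there at this depth. A listed 0 in 1 library of LGR5 allows up to 3 reads, or 0.0199 to 0.0546 RPKM depending on the library. Over the 3 lines with reads, the JQ1 effect differed (F test in limma, adjusted p = 1.62e-14), a comparison added after the values were seen. The average over all 6 lines was 0.11 ± 0.025 (adjusted p = 0.000162), and was no longer called on recovered reads with voom (adjusted p = 0.926) or with a smaller added constant of 0.1 (adjusted p = 0.134).

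ASCL2, a basic helix-loop-helix factor needed for intestinal stem cell identity in mice, showed the largest falls of the 10 genes. In HCT-15 it had 7.84, 8.35 and 8.66 RPKM with JQ1, against 37.8, 39.1 and 38.1 RPKM in DMSO (-2.15 ± 0.071, adjusted p = 1.08e-20). COLO320 had 2.92, 2.54 and 3.38 RPKM with JQ1, against 12.6, 12.5 and 11.9 RPKM in DMSO (-1.90 ± 0.071, adjusted p = 2.36e-19). HT-29 had 0.536, 0.693 and 0.538 RPKM with JQ1, against 3.16, 2.71 and 3.28 RPKM in DMSO (-1.70 ± 0.071, adjusted p = 1.34e-18). JQ1 thus lowered ASCL2 in these lines, by 4.63 times in HCT-15, 4.18 times in COLO320 and 5.18 times in HT-29 as a ratio of mean RPKM, and no library overlapped. In SW480 it had 9.15, 9.28 and 9.26 RPKM with JQ1, against 21.8, 18.6 and 20.2 RPKM in DMSO (-1.09 ± 0.071, adjusted p = 5.85e-14). COLO205 went against these 4 lines, with 69.9, 67.0 and 73.3 RPKM with JQ1, against 33.0, 32.4 and 36.6 RPKM in DMSO (1.03 ± 0.071, adjusted p = 1.65e-13). There every JQ1 library lay above every DMSO library, a ratio of mean RPKM of 2.06. HCT116 had 8 reads with JQ1 and 1 read in DMSO, a ratio of 9.39 with an exact 95% counting interval of 1.26 to 417, and the change was not called in limma (0.15 ± 0.071, adjusted p = 0.066). Other settings called this rise, with adjusted p of 6.03e-06 to 0.286 over all alternatives. Leaving out JQ1 replicate 2 or 3 of COLO320 gave adjusted p of 0.0419 and 0.0403. Over the 5 lines with reads the JQ1 effect on ASCL2 differed (F test in limma, adjusted p = 6.69e-21, added after the values were seen).

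SOX9, a crypt transcription factor that is also expressed in Paneth cells, rose in 4 lines and fell in SW480 and HCT116. In HT-29 it had 76.5, 74.6 and 75.7 RPKM with JQ1, against 43.8, 41.2 and 44.6 RPKM in DMSO (0.80 ± 0.037, adjusted p = 1.68e-17). HCT-15 had 61.8 ± 1.25 RPKM with JQ1 and 41.9 ± 0.998 RPKM in DMSO (0.55 ± 0.037, adjusted p = 1.16e-13), and COLO205 had 59.0 ± 0.903 RPKM with JQ1 and 40.5 ± 0.953 RPKM in DMSO (0.54 ± 0.037, adjusted p = 2.08e-13). COLO320, where the gene is low, had 4.80 ± 0.322 RPKM with JQ1 and 3.19 ± 0.226 RPKM in DMSO (0.52 ± 0.037, adjusted p = 5.3e-13). All JQ1 libraries lay above all DMSO libraries in these 4 lines. In SW480, the line with the most SOX9, it had 82.7, 82.8 and 86.5 RPKM with JQ1, against 103, 106 and 102 RPKM in DMSO (-0.30 ± 0.037, adjusted p = 2.71e-08). HCT116 had 40.3, 41.6 and 41.0 RPKM with JQ1, against 44.1, 42.9 and 44.8 RPKM in DMSO (-0.10 ± 0.037, adjusted p = 0.02). The difference in HCT116 was small, and the call was lost without DMSO replicate 3 (adjusted p = 0.0785), without JQ1 replicate 1 (adjusted p = 0.0708) and with quantile scaling (adjusted p = 0.12), with a range of 0.00178 to 0.12 over all alternatives.

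EPHB2, the ephrin receptor whose level declines from the crypt base upward, rose in 5 lines. In HCT116 it had 9.40, 9.22 and 9.41 RPKM with JQ1, against 6.33, 6.31 and 6.53 RPKM in DMSO (0.52 ± 0.044, adjusted p = 2.66e-11). HCT-15 had 8.39 ± 0.130 RPKM with JQ1 and 5.67 ± 0.0987 RPKM in DMSO (0.53 ± 0.044, adjusted p = 1.19e-11), SW480 had 10.1 ± 0.394 RPKM with JQ1 and 7.04 ± 0.580 RPKM in DMSO (0.49 ± 0.044, adjusted p = 4.96e-11) and HT-29 had 1.46 ± 0.102 RPKM with JQ1 and 0.970 ± 0.0758 RPKM in DMSO (0.41 ± 0.044, adjusted p = 1.71e-09). The change lay between 0.41 and 0.53 in these 4 lines, and all their JQ1 libraries lay above their DMSO libraries. In COLO205, with by far the most EPHB2, it had 204, 205 and 209 RPKM with JQ1, against 189, 188 and 192 RPKM in DMSO (0.12 ± 0.044, adjusted p = 0.0193). That small rise lost its call without DMSO replicate 2 (adjusted p = 0.052) and without JQ1 replicate 3 of COLO205 (adjusted p = 0.065), with a range of 2.83e-11 to 0.065 over all alternatives. COLO320 went the other way, with 3.30, 3.29 and 3.03 RPKM with JQ1, against 5.54, 5.35 and 5.74 RPKM in DMSO (-0.71 ± 0.044, adjusted p = 2.57e-14), and its JQ1 libraries all lay below its DMSO libraries.

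TCF7 and LEF1, which encode DNA-binding partners of β-catenin, were the members that JQ1 lowered without a called rise in any line. This did not hold for the whole TCF/LEF family. TCF7L2, outside the 10 genes, was called higher in HT-29 (0.45), COLO205 (0.42) and HCT-15 (0.26). It was called lower in HCT116 (-0.36), SW480 (-0.37) and COLO320 (-0.091). For TCF7, HT-29 had 10.3, 9.77 and 9.51 RPKM with JQ1, against 19.5, 19.4 and 19.5 RPKM in DMSO (-0.94 ± 0.037, adjusted p = 2.92e-19). SW480 had 13.9, 13.8 and 14.0 RPKM with JQ1, against 22.1, 20.6 and 21.3 RPKM in DMSO (-0.60 ± 0.037, adjusted p = 1.5e-14). HCT116 had 7.43, 6.49 and 7.34 RPKM with JQ1, against 10.7, 9.87 and 9.90 RPKM in DMSO (-0.49 ± 0.037, adjusted p = 1.85e-12). The JQ1 libraries lay below the DMSO libraries in these lines as in the other lines. COLO320 had 12.5, 12.7 and 12.5 RPKM with JQ1, against 17.1, 16.6 and 17.0 RPKM in DMSO (-0.41 ± 0.037, adjusted p = 5.74e-11), and HCT-15 had 4.87, 4.84 and 4.63 RPKM with JQ1, against 6.30, 5.88 and 5.85 RPKM in DMSO (-0.30 ± 0.037, adjusted p = 2.73e-08). COLO205, the line with the most TCF7, had 244, 242 and 247 RPKM with JQ1, against 297, 295 and 302 RPKM in DMSO (-0.29 ± 0.037, adjusted p = 6.98e-08). The average was -0.51 ± 0.015 (adjusted p = 1.27e-22), lower in 18 of 18 JQ1 libraries than in the DMSO libraries of the same line. These 18 are 3 samples in each of 6 lines. In the fit with the 6 lines as units, the SE was 0.094 and the adjusted p 0.00433. The size still differed between lines (F test, adjusted p = 1.2e-11). SKP1, a ubiquitin ligase subunit on the opposite strand, overlaps TCF7 over 210 bases in GENCODE 29 and was higher with JQ1 in every line, by 0.50 to 1.05 in log2(RPKM + 0.5), so its change runs opposite to that of TCF7.

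LEF1 fell in the 4 lines in which it was detected above a handful of reads. In SW480 it had 7.46, 7.19 and 6.96 RPKM with JQ1, against 14.0, 13.4 and 14.0 RPKM in DMSO (-0.89 ± 0.044, adjusted p = 1.02e-16). COLO205 had 1.59, 1.67 and 1.45 RPKM with JQ1, against 2.88, 2.34 and 2.71 RPKM in DMSO (-0.60 ± 0.044, adjusted p = 6.3e-13). HCT-15 had 9.89, 10.004 and 10.1 RPKM with JQ1, against 12.6, 12.6 and 12.1 RPKM in DMSO (-0.30 ± 0.044, adjusted p = 6.7e-07), and COLO320, with the most LEF1, had 61.8, 61.4 and 62.4 RPKM with JQ1, against 71.0, 71.2 and 70.2 RPKM in DMSO (-0.19 ± 0.044, adjusted p = 0.0003). The treatments did not overlap in any of the 4 lines. HCT116 had 2 reads with JQ1 and 3 in DMSO, and HT-29 had 4 with JQ1 and 5 in DMSO, so a change could not be detected there. The JQ1 effect differed over the 4 lines with reads (F test in limma, adjusted p = 1.12e-10, added after the values were seen). LEF1-AS1, an antisense transcript that overlaps LEF1 over 279 bases, was also lower in these 4 lines, with changes of -0.21 to -0.77 in log2(RPKM + 0.5), and without stated strand its reads could not be separated from those of LEF1. The same annotation also places AC004805.1 over 1316 bases of AXIN2 on the same strand, AC078860.1 over 208 bases of LGR5, AC007608.1 over 67 bases of NKD1 and MIR4253 over 34 bases of EPHB2, the last 3 on the opposite strand.

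**Figure D3:**
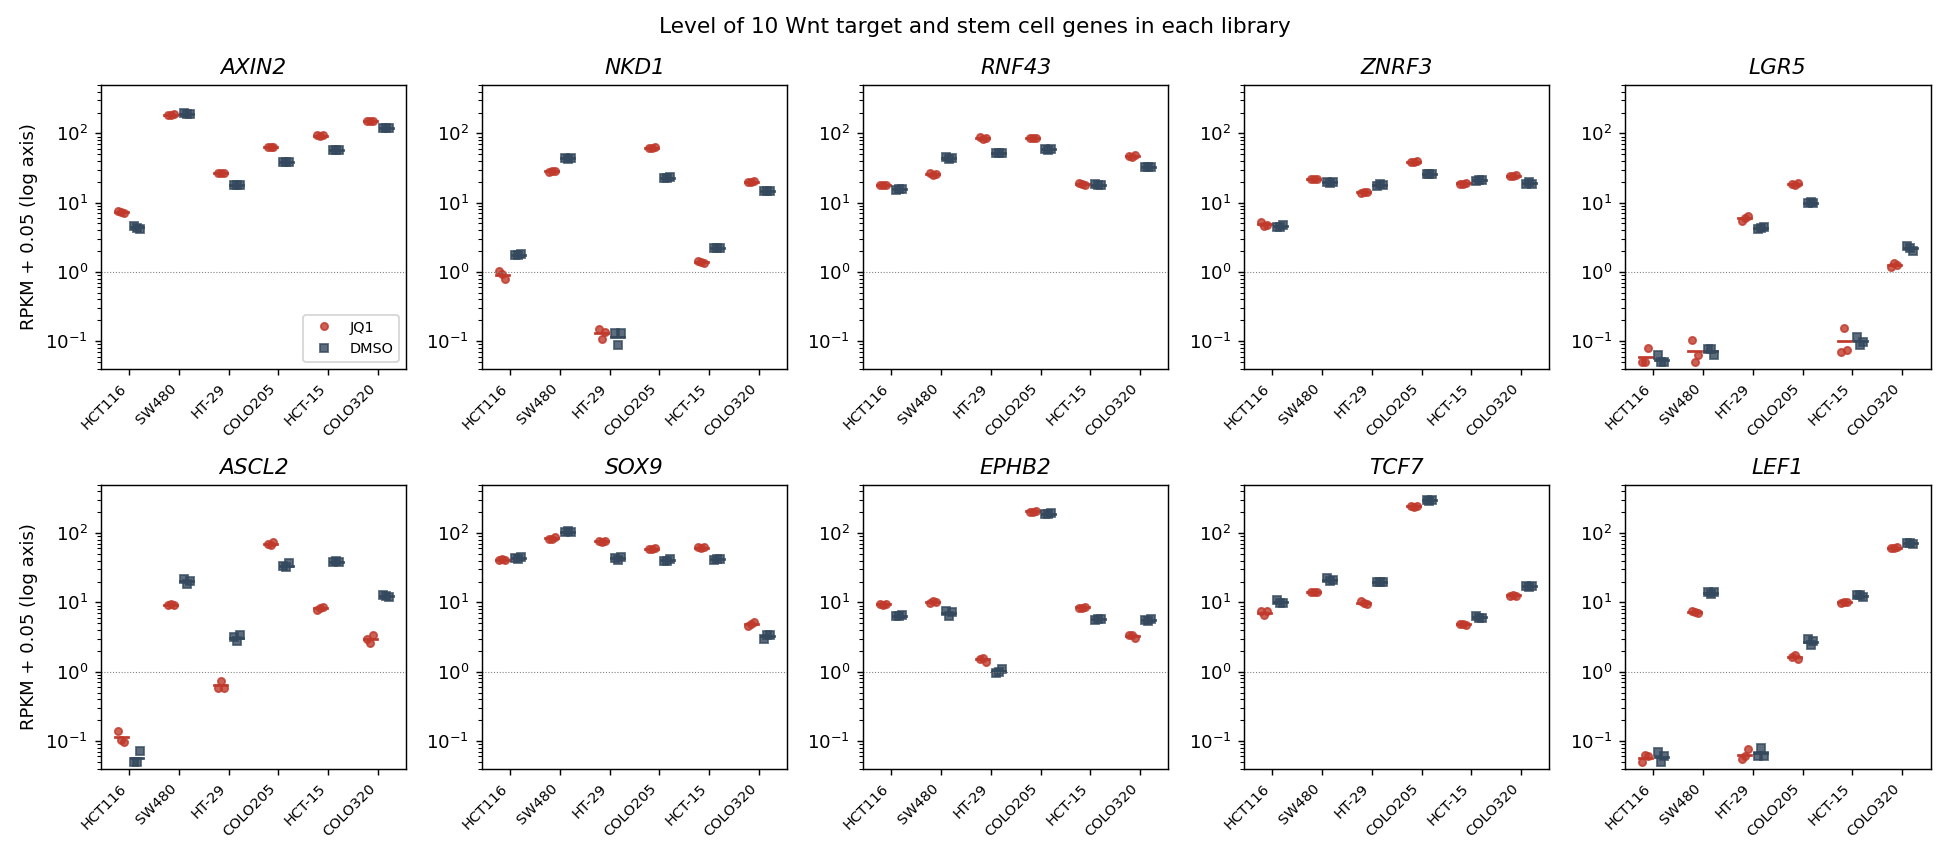
Level of each gene in all 36 libraries, as RPKM + 0.05 on a log axis, with JQ1 (red circles) left of DMSO (dark squares) in each line and a bar at the group mean (n = 3 libraries per group). The dotted line marks 1 RPKM; TCF7 is lower with JQ1 in every line, and LGR5, ASCL2, LEF1 and NKD1 lie near the floor in 1 or more lines.

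The last comparison set the JQ1 effect in HCT116 against its mean in the 5 APC-mutant lines, with the same libraries. Of the 10 genes, 4 had a higher and 2 a lower effect in HCT116, against 32.5% and 28.4% of all tested genes, so the counts are again close to the background. AXIN2 rose more in HCT116 than in the mean of the APC-mutant lines, by 0.24 ± 0.023, adjusted p = 9.7e-10, although its rise of 0.73 in COLO205 was no smaller. EPHB2 rose more by 0.35 ± 0.048, adjusted p = 5.54e-07, and it fell in COLO320 and rose little in COLO205. NKD1 differed by -0.86 ± 0.045, adjusted p = 2.59e-15 and SOX9 by -0.52 ± 0.041, adjusted p = 1.15e-11. Both genes were lower with JQ1 in HCT116 and in SW480 and higher in COLO205 and COLO320. TCF7 differed by 0.019 ± 0.041 (adjusted p = 0.713), RNF43 by -0.012 ± 0.029 (adjusted p = 0.733) and ZNRF3 by -0.027 ± 0.032 (adjusted p = 0.483), none of them called. The contrasts of ASCL2 (1.31 ± 0.078), LEF1 (0.39 ± 0.048) and LGR5 (-0.12 ± 0.067) compare changes in the APC-mutant lines with a gene that had at most 8 reads per treatment in HCT116, and so rest on the APC-mutant lines. On recovered reads the LEF1 contrast was not called (voom, adjusted p = 0.535).

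Around these genes, the rest of the pathway was counted by role for the average JQ1 effect, beside 40.2% of all tested genes higher and 48.3% lower and a median over all genes of -0.04. These averages take the libraries as units, so their SE and calls do not cover the spread between lines. With the lines as units, 2893 genes were called higher and 3162 lower, in place of 6245 and 7500. Such a fit is not given for these lists. Counts of lines below are given without a share of all genes. Of 23 receptors and Dishevelled genes, 14 were higher and 6 lower (median 0.09), led by LGR4, the R-spondin receptor related to LGR5, at 0.53 ± 0.018 (adjusted p = 2.08e-21). LGR4 rose in 4 APC-mutant lines, for example with 81.1 ± 1.05 RPKM with JQ1 and 50.1 ± 0.936 RPKM in DMSO in HT-29, but fell in HCT116, at 1.56 ± 0.0409 RPKM with JQ1 and 2.07 ± 0.0664 RPKM in DMSO. Of 20 destruction complex and nuclear effector genes tested, 10 were higher and 8 lower (median 0.05). CTNNBIP1, which blocks the binding of β-catenin to TCF factors, was higher in 6 of 6 lines (average 0.61 ± 0.014, adjusted p = 3.26e-25), and BCL9, a co-activator of β-catenin, was lower in 6 of 6 (average -0.59 ± 0.019, adjusted p = 5.54e-22). TNKS, TNKS2, GSK3B and PYGO2 of the same list were also higher in every line, with averages of 0.52, 0.41, 0.50 and 0.38. The TLE co-repressors, which bind TCF factors in place of β-catenin, did not move together. TLE4 was higher in the 5 APC-mutant lines (average over 6 lines 0.80 ± 0.024). In HCT116 it was not detected with JQ1, and its change was not called (-0.0080 ± 0.059, limma, adjusted p = 0.931). Its DMSO level there was thus near the floor as well. TLE2 had the largest average fall of the list, -0.71 ± 0.026 (adjusted p = 1.34e-20), and was lower in 5 lines and not called in COLO205. TLE3 averaged -0.18 ± 0.017 (adjusted p = 5.46e-11), lower in SW480, HCT-15 and COLO320 and higher in HT-29. Of 35 ligand and secreted regulator genes, 21 passed the filter, and 2 of these were higher and 16 lower (median -0.28). By line, 11 were lower in HCT116, 11 in SW480, 10 in COLO320, 9 in HCT-15, 6 in COLO205 and 3 in HT-29. Among all genes, 35.4% to 40.1% were lower per line. The line medians ran from -0.46 in SW480 to -0.0074 in COLO205. Some averages came from 1 line, as for WIF1 in COLO320 (-3.11) and WNT3A in HCT116 (-1.57). The ligand WNT10B averaged -1.12 ± 0.033 (adjusted p = 1.28e-22), with 2.28 ± 0.0632 RPKM with JQ1 and 13.5 ± 0.129 RPKM in DMSO in COLO320, and WNT3 was lower in 6 of 6 lines.

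Among 29 other Wnt target genes, 10 were higher and 18 lower (median -0.15). JUN and EPHB3, a receptor related to EPHB2, were higher in 6 of 6 lines, with averages of 0.86 ± 0.020 and 0.85 ± 0.023. CLDN2, a claudin of crypt cells, gave the largest average fall at -1.69 ± 0.023, which came from 3 lines, for example 0.175 ± 0.0352 RPKM with JQ1 and 27.0 ± 0.145 RPKM in DMSO in HT-29. Among 21 other intestinal stem cell genes, 5 were higher and 16 lower (median -0.28), and EPHB3, CD44, SLC12A2 and TNFRSF19 stand in both lists. CDCA7 and MEX3A were lower in 6 of 6 lines, with averages of -0.96 ± 0.0098 and -1.18 ± 0.019. In COLO205, where 8 of the 10 members rose and 2 fell, 3 of these 21 stem cell genes were higher and 13 lower, against 34.2% higher and 38.6% lower among all tested genes in that line. In the comparison of HCT116 with the APC-mutant lines, 19 of the 29 other Wnt targets had a higher and 4 a lower JQ1 effect in HCT116 (median 0.30), against 32.5% and 28.4% of all genes. The largest of these differences, CLDN2 at 2.08 ± 0.061, came from a gene at 0.307 ± 0.0609 RPKM with JQ1 and 0.285 ± 0.0454 RPKM in DMSO in HCT116. A fall in an APC-mutant line alone also raises this contrast. TDGF1 changed by -2.61 in COLO205 and FGF20 by -1.65 in SW480, and neither was called in HCT116. How many of the 19 genes were too low in HCT116 to fall was not counted. Members and lists were not compared with each other by a test.

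**Figure D4:**
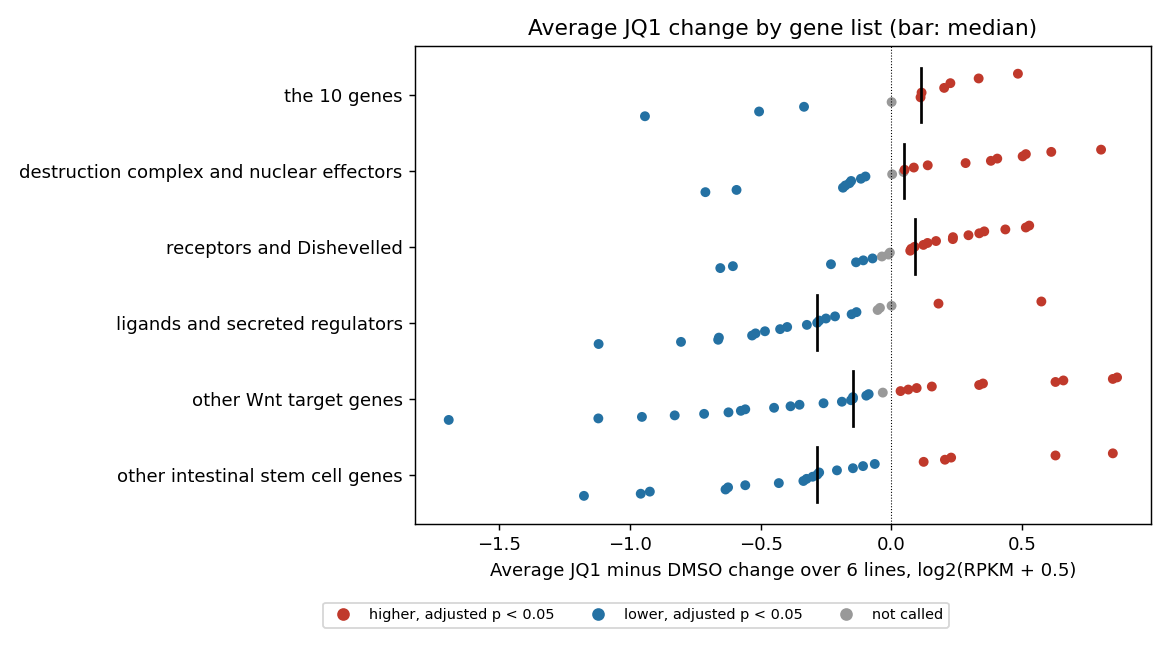
Average JQ1 minus DMSO change over the 6 lines in log2(RPKM + 0.5) for each tested gene of the 10 members and of 5 further lists (rows), with a bar at each list's median. Colours give the limma call with libraries as units (red higher, blue lower, grey not called). The medians run from -0.28 for the ligands and the other stem cell genes to 0.11 for the 10 genes.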

How the data were processed

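Total RNA of 6 human colon cancer lines was sequenced from TruSeq libraries, per the labels' protocols, in 3 JQ1 and 3 DMSO samples per line. The deposited values are RPKM per gene, computed by the authors, with GSNAP and limma named in the submitters' processing notes without versions. The notes name the build NCBIM37, a mouse assembly, although the gene numbers are human, so no gene coordinates are printed apart from RefSeq promoter entries of GRCh38.p14. Symbols were matched on the Entrez number, which named 24519 of 26468 genes. All value columns matched a sample.

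The members, the further lists and the rule for named genes were chosen with earlier results of these data known. The rule named the 10 members and, from each further list, the largest called average changes (3 in each direction) and the largest called differences between HCT116 and the APC-mutant lines (2 in each direction); the text gives some of them. Reads were recovered from the steps between RPKM values and came out whole, within 0.01 read, for 23495 of 23499 genes above 0 (99.98%). Replicates differed by more than counting noise in all 36 pairs (chi-square per gene 1.22 to 3.20). Intervals and floors cover counting error only.

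Tests used limma 3.58.1 in R 4.3.3 on log2(RPKM + 0.5), with 12 group means over 36 libraries, 24 residual and 2.97 prior degrees of freedom and a mean-variance trend, for the 15542 genes with at least 1 RPKM in at least 3 libraries. Two-sided p-values were adjusted over these genes by the Benjamini-Hochberg method, and calls were made at 0.05. Tested on simulated reads, the pooled fit called more unchanged genes than its nominal rate, mostly genes of low level, while voom on the reads and data with equal spread stayed nearer to it; a first criterion for this check was missed and then set on the equal-spread data. Alternatives were an added constant of 0.1 or 1, no filter, quantile scaling, total reads as divisor, voom on recovered reads, each line fitted alone, the line as the unit, a replicate block and leaving out each library. An F test over lines with over 12 reads was added after the data were seen. Python 3.11.15 ran the other steps, with matplotlib 3.10.9 for figures, scipy 1.17.1 for intervals, and pandas 2.3.3 and numpy 2.4.6 for tables.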

Additional observations from a re-analysis of the deposited data

Results flagged for a closer look

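The effect of JQ1 differed between the 6 lines for each of the 10 genes by the F test in limma, as it did for 93.3% of all tested genes. The adjusted p was 1.11e-22 for RNF43, 1.54e-22 for NKD1, 1.65e-21 for ASCL2, 2.42e-19 for AXIN2, 3.42e-17 for SOX9, 4.52e-17 for ZNRF3, 1.36e-16 for EPHB2, 2.13e-13 for LEF1, 1.29e-13 for LGR5 and 1.20e-11 for TCF7. For NKD1, RNF43, ZNRF3, LGR5, ASCL2, SOX9, AXIN2 and EPHB2 the difference included called changes of opposite sign, and for TCF7 and LEF1 it was one of size among falls. The values of LGR5 and LEF1 include lines with at most 12 reads per group, and on recovered reads in all 6 lines these F tests were not called (voom, adjusted p = 0.459 for LGR5 and 0.795 for LEF1). Over the lines with reads, voom called both (adjusted p = 2.00e-14 for LGR5 in 3 lines and 1.26e-19 for LEF1 in 4 lines).

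The JQ1 effect in HCT116 differed from its mean in the 5 APC-mutant lines for 6 genes. In log2(RPKM + 0.5) the difference was 0.24 for AXIN2, 0.35 for EPHB2, -0.86 for NKD1 and -0.52 for SOX9. It was 1.31 for ASCL2 and 0.39 for LEF1, which had at most 8 reads per treatment in HCT116. With 1 CTNNB1-mutant line, genotype and line cannot be told apart.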

How the results depend on the processing

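With the 6 cell lines as the units, 1 member was called higher (AXIN2) and 1 lower (TCF7) for the average JQ1 effect, in place of 6 and 3. Of all 15542 tested genes, 2893 were higher and 3162 lower in that fit, in place of 6245 and 7500. The average changes of the members were the same in both fits and their SE larger, for example 0.41 in place of 0.029 for ASCL2. No other count of called members moved by over 1.5 times under any alternative. Under quantile scaling, LEF1 in HCT116 was 0.0083, LGR5 0.0086 in SW480 and 0.022 in HCT-15, and the TCF7 difference between HCT116 and the APC-mutant lines -0.022. Adding 1 in place of 0.5 gave 0.00028 for LGR5 in SW480 and 0.00056 in HCT-15. Total reads as divisor gave -0.098 for RNF43 in HCT-15, -0.023 for the NKD1 average and 7.7e-05 for the RNF43 difference between HCT116 and the APC-mutant lines. The NKD1 average was also -0.038 with 0.1 added and -0.0083 by voom, and it was called at 0.038 with 1 added (adjusted p = 0.0069) and at 0.047 under quantile scaling (adjusted p = 0.020). Voom gave 0.57 for the LGR5 difference between HCT116 and the APC-mutant lines. The cause was not tested.

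Leaving out 1 library changed the sign of small, uncalled values. LGR5 ran from -0.012 to 0.028 in HCT116, from -0.043 to 0.031 in SW480 and from -0.070 to 0.038 in HCT-15. LEF1 ran in HT-29 from -0.027 to 0.0070, and in HCT116 from -0.019 to 0.0073. NKD1 ran from -0.0050 to 0.062 in HT-29 and from -0.0084 to 0.012 for the average. The difference between HCT116 and the APC-mutant lines ran from -0.034 to 0.0028 for RNF43, from -0.068 to 0.0061 for ZNRF3 and from -0.014 to 0.076 for TCF7.

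Replicate numbers did not pair the samples: same-numbered JQ1 and DMSO libraries correlated at -0.148 to 0.0492 over 18 pairs, and 6 of 18 JQ1 libraries correlated best with their own number. With the replicate block (correlation -0.0242) the counts were the same, 6 higher and 3 lower for the average, and no member's call changed. Depth limits LGR5, LEF1 and ASCL2 where a group has at most 12 reads.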
